A study of Mus musculus with 6 samples.

Results

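Guanylate-binding proteins are large GTPases of the dynamin superfamily, and their mRNAs were measured here in mouse tumours under a treatment labelled MS-DF-MS. The 9 genes Gbp2, Gbp3, Gbp4, Gbp5, Gbp6, Gbp7, Gbp8, Gbp9 and Gbp10 were taken by symbol from a table of 28368 genes, each symbol had 1 row, and all 9 passed the filter on low counts. Tumour RNA was sequenced from 3 samples treated for 12 h and 3 untreated control samples. The title of the series speaks of implanted depots that release a STING agonist and then an inducer of apoptosis, and the control group carried no empty depot, so the drugs and the implant cannot be told apart. Strain, age, sex, tumour type and the drugs are not named in the labels, which do not say whether each library is a separate animal. The p-values therefore measure the spread between these libraries, which may be technical in part.

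Guanylate-binding proteins gather on vacuoles and membranes of intracellular microbes, where they help to open them and to feed microbial DNA and lipopolysaccharide to the inflammasome. Their genes respond to interferon. Interferon-gamma acts through factors that bind the GAS element and through the induced factor IRF1, and type I interferon, the product of STING signalling, acts through a complex with STAT2 and IRF9 that binds the ISRE. In tumours these mRNAs are widely read as a mark of interferon-gamma activity, although macrophages, endothelial cells and tumour cells can all make them.

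The 6 libraries held 57017043 to 66634551 counts. Treated 3 stood apart from the rest on the first principal component of log2 CPM (counts scaled to library size; 72.9, against -37.92 to 13.34 in the other 5), so results that rest on it are given with and without it. It was not the only library to stand out. The sample quality weights of limma-voom were lowest in treated 1 (0.444), then in control 3 (0.717) and treated 3 (0.779), and highest in control 2 (3.80). In bulk RNA, a smaller number of expressing cells and less RNA per cell cannot be told apart. The labels name the tissue only as tumour. Summed over 8 genes of the melanocyte lineage, the level was 22010 to 24590 CPM in the 6 libraries.

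No guanylate-binding protein mRNA passed the test of treated against control tumours. Gbp5, Gbp9 and Gbp3 had the largest differences, at 3.28-fold, 2.65-fold and 2.54-fold of the control level, and Gbp8, Gbp4 and Gbp10 had values below control, at 0.586-fold, 0.776-fold and 0.954-fold. Of 9 members, 0 rose and 0 fell at an edgeR quasi-likelihood adjusted p under 0.05 (Benjamini-Hochberg over 18049 genes), where 1.36% of all genes tested rose, 0.249% fell and 1.61% did either. At an unadjusted edgeR p under 0.05 there were 4, namely Gbp3, Gbp5, Gbp7 and Gbp9, against 16.0% of all genes. DESeq2 called 1 member as rising (Gbp3, DESeq2 adjusted p = 0.036), beside 4.95% of its genes, and limma-voom with sample quality weights also called 1 (Gbp3, limma-voom adjusted p = 0.0329), beside 3.33%. The median log2 fold change of the members was 0.40, with -0.003 for all genes tested. Treated and control libraries did not overlap for 1 of the 9 members, Gbp3, or 11.1%, beside 23.3% of all genes. The SE of a member's log2 fold change was 0.337 to 0.599, where the median over all genes was 0.156.

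**Figure D1:**
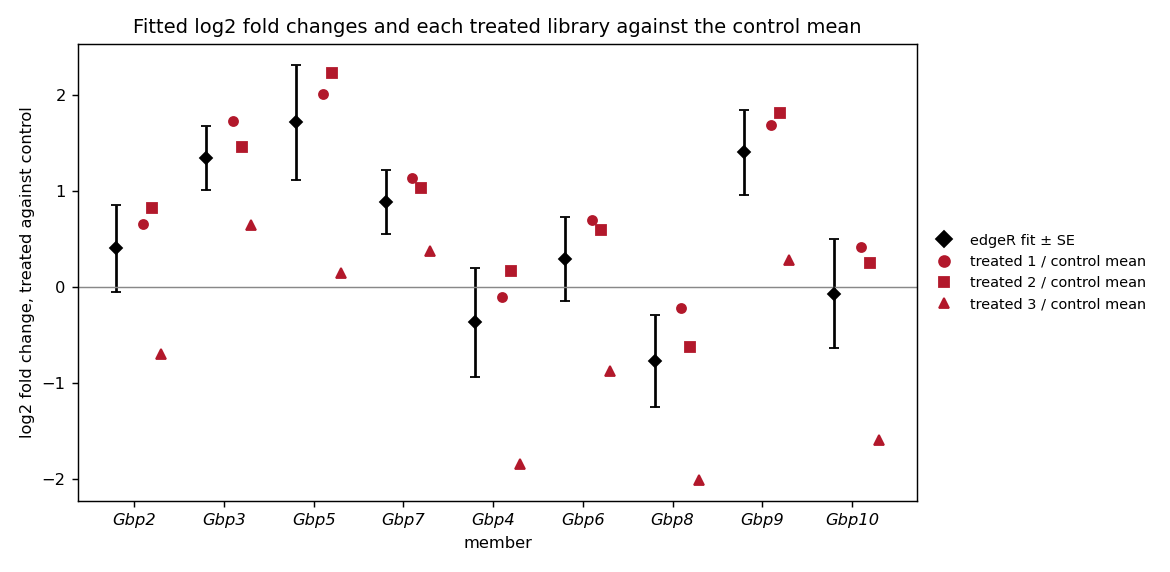
Log2 fold change of each member, treated against control: black diamonds are the edgeR estimate with its SE, red symbols are the log2 ratio of each treated library to the mean of the 3 controls. Treated 3 lies below treated 1 and treated 2 for all 9 members, and below the control mean for Gbp2, Gbp4, Gbp6, Gbp8 and Gbp10.

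Leaving out treated 3 made Gbp3 pass (log2 fold change 1.60, edgeR adjusted p = 0.0441), the single member called in that setting, where 1.64% of all genes rose. Treated 3 was the lowest treated library for all 9 members, so its removal raises their fold changes by construction. With any other library left out Gbp3 was not called (edgeR adjusted p = 0.139 to 0.349). Gbp9 came next (1.75, edgeR adjusted p = 0.0529), then Gbp5 (2.13, edgeR adjusted p = 0.0759). Gbp4 (0.04) and Gbp10 (0.34) were then above the control mean rather than below it, while Gbp8 stayed below it (-0.41). None of these last 3 passed in that fit (edgeR adjusted p = 0.985, 0.784 and 0.668).

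The 4 members on chromosome 3 lie within 1 block, Gbp5 first and Gbp2 last. Gbp2, a lipid-anchored member that coats vacuoles of Toxoplasma, spans chr3:142620602-142638008 on the plus strand as the table gives it. It was at 203, 228 and 79.2 CPM in treated 1, 2 and 3 and at 65.9, 125 and 195 CPM in controls 1, 2 and 3. Treated 3 fell among the controls and control 3 close to the upper treated pair, so the groups overlapped. Its means were 170.1 ± 79.7 and 129 ± 64.7 CPM (SD, n = 3; log2 fold change 0.40 ± 0.45 SE, edgeR adjusted p = 0.732).

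Gbp3 (chr3:142560026-142573209, plus strand) was at 131, 109 and 62.3 CPM in the treated libraries and at 24.6, 38.6 and 55.9 CPM in the controls. Every treated library was above every control, with a narrow gap between treated 3 and control 3. The means were 101 ± 35.2 and 39.7 ± 15.7 CPM (SD, n = 3; log2 fold change 1.34 ± 0.34 SE, edgeR adjusted p = 0.112).

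Gbp5, a lipid-anchored member known to promote the NLRP3 inflammasome, spans chr3:142493978-142522344 on the plus strand. It was at 38.9, 45.3 and 10.7 CPM in the treated libraries and at 4.08, 8.88 and 16.0 CPM in the controls. Treated 1 and 2 were far above the controls, and treated 3 was within their range. The means were 31.6 ± 18.4 and 9.65 ± 5.996 CPM (SD, n = 3; log2 fold change 1.71 ± 0.60 SE, edgeR adjusted p = 0.223).

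Gbp7, which has been tied to the delivery of oxidases and autophagy proteins to phagosomes, spans chr3:142530342-142550149 on the plus strand. It was at 126, 117 and 74.6 CPM in the treated libraries and at 32.8, 52.0 and 87.3 CPM in the controls. Control 3 was above treated 3, and the other 2 controls were below all treated libraries. The means were 106 ± 27.4 and 57.4 ± 27.6 CPM (SD, n = 3; log2 fold change 0.88 ± 0.34 SE, edgeR adjusted p = 0.254).

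RefSeq promoter windows (GRCm38.p6, 250 bases before to 50 after a transcript start, plus strand) matched 4 of the 9 members, all on chromosome 3. These 4 are shown as the only members with a window. Their estimated fold changes differed in size, but no test compared members. Capitals mark matches, on either strand, to the ISRE letters (GAAA, any pair of bases, then GAAA) or to the GAS letters (TTCNNNGAA, which read the same on both strands). Gbp2 is from chr3:142620413-142620712, Gbp3 from chr3:142559794-142560093, Gbp5 from chr3:142496684-142496983 and Gbp7 from chr3:142530086-142530385.
Gbp2: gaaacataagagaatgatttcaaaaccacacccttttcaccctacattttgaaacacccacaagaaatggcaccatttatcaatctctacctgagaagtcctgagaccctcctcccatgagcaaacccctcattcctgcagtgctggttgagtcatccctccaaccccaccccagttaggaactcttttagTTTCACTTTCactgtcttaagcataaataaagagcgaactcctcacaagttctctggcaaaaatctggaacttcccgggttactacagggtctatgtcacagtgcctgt
Gbp3: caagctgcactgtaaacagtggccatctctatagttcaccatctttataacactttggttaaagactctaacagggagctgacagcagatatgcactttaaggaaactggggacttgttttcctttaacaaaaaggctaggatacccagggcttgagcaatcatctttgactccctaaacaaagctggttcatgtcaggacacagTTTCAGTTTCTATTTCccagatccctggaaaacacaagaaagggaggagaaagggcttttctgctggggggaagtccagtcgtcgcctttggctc
Gbp5: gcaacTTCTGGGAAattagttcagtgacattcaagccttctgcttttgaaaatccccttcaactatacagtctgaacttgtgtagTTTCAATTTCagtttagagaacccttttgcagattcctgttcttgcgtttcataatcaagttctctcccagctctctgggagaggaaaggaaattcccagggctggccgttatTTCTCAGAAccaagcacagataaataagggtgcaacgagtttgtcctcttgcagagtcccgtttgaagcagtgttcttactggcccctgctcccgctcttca
Gbp7: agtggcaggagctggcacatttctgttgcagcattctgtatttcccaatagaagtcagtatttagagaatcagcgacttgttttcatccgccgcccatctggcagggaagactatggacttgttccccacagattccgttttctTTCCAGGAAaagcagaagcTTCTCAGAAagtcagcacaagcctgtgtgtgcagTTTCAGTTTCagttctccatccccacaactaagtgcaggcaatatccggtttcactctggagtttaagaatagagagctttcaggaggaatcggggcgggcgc

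All 4 windows held the ISRE letters, found in 3.43% of 32817 RefSeq promoter windows of the same length. The match lay 59 to 50 bases before the start in Gbp2, 53 to 44 in Gbp7 and 165 to 156 in Gbp5, and Gbp3 had a pair of overlapping matches from 45 to 30 bases before it. The Gbp5 window lies inside the gene span given above, which begins at 142493978. The windows of Gbp2, Gbp3 and Gbp7 hold the first base of their spans, so positions in Gbp5 are not directly comparable. The GAS letters had 2 matches in Gbp5 and 2 in Gbp7, none overlapping an ISRE match, and not in the windows of Gbp2 and Gbp3, where 8.29% of all windows held them. Both sets of letters together were in 0.45% of windows. Gbp5 and Gbp7, with both sets of letters, were at 3.28-fold and 1.85-fold. Gbp3 and Gbp2, with ISRE letters alone, were at 2.54-fold and 1.32-fold. None of these 4 passed the main test, and a link between letters and fold change was not tested. A second window of Gbp3, from chr3:142560106-142560405, held neither. A match is a string of letters and not a measured binding site.

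**Figure D2:**
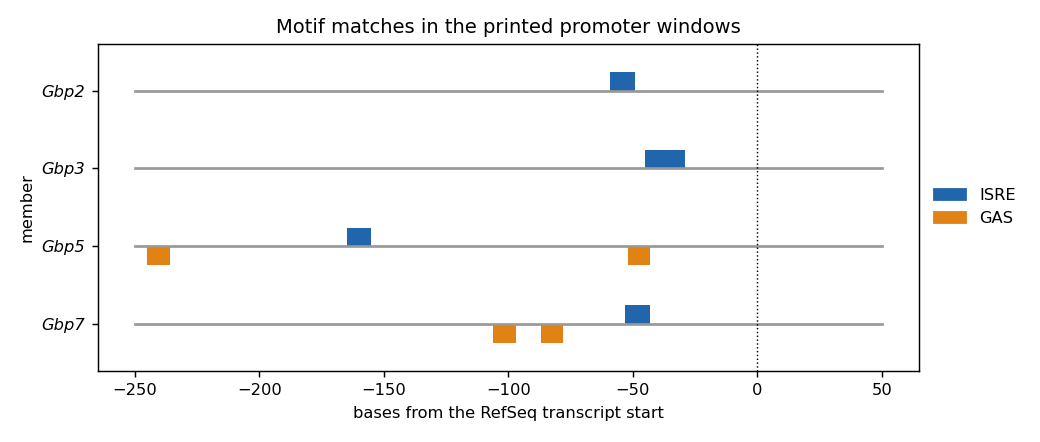
Positions of the ISRE (blue) and GAS (orange) letter matches in the promoter windows of 4 members, in bases from the RefSeq transcript start (dotted line). Gbp2, Gbp3 and Gbp7 have their ISRE matches close to the start, and Gbp5 and Gbp7 each have 2 GAS matches.

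The 5 members on chromosome 5 lie on the minus strand. Gbp9 (chr5:105077630-105110277) was at 31.0, 33.8 and 11.8 CPM in the treated libraries and at 5.64, 8.77 and 14.6 CPM in the controls. Its pattern resembled that of Gbp5, with treated 3 inside the control range. The means were 25.5 ± 12.0 and 9.66 ± 4.52 CPM (SD, n = 3; log2 fold change 1.40 ± 0.44 SE, edgeR adjusted p = 0.186).

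Gbp4 (chr5:105115767-105139586) was at 78.8, 95.2 and 23.7 CPM in the treated libraries and at 35.3, 80.8 and 139 CPM in the controls. The highest library was a control and the lowest was treated. The means were 65.9 ± 37.4 and 84.9 ± 51.8 CPM (SD, n = 3; log2 fold change -0.37 ± 0.57 SE, edgeR adjusted p = 0.815).

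Gbp6 (chr5:105270702-105293696) was at 82.3, 76.7 and 27.9 CPM in the treated libraries and at 27.9, 50.7 and 74.1 CPM in the controls (log2 fold change 0.29 ± 0.44 SE, edgeR adjusted p = 0.808). Gbp10 (chr5:105215699-105239533) was at 19.9, 17.7 and 4.95 CPM against 7.35, 12.0 and 25.3 CPM (log2 fold change -0.07 ± 0.56 SE, edgeR adjusted p = 0.971). Treated 3 was the lowest library for Gbp10, and level with control 1 as the lowest for Gbp6, and control 3 was the highest for Gbp10. Reads for these genes are hard to assign: 76.5% of the 150-base windows of Gbp6 coding transcripts and 63.2% of those of Gbp10 occur unchanged in a transcript of another gene. The partner is Gm43302 (chr5:105214907-105293695, minus strand), a gene model that covers both, and, for some windows, the other member. Gm43302 held 639 to 2273 counts per library and had a log2 fold change of 0.29 ± 0.47 SE (edgeR adjusted p = 0.822), so the split among the 3 is uncertain.

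Gbp8 (chr5:105014150-105053556) was the scarcest member, at 3.29, 2.47 and 0.948 CPM in the treated libraries and at 2.21, 4.08 and 5.16 CPM in the controls. Control 1 was within the treated range and the other 2 controls were above all treated libraries. The means were 2.24 ± 1.19 and 3.82 ± 1.49 CPM (SD, n = 3; log2 fold change -0.77 ± 0.47 SE, edgeR adjusted p = 0.481). For the remaining members the windows shared with another gene made up 8.77% in Gbp7 (with the pseudogene Gm43802, at 6 to 16 counts), 0.04% in Gbp4 and none in Gbp2, Gbp3, Gbp5, Gbp8 and Gbp9.

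**Figure D3:**
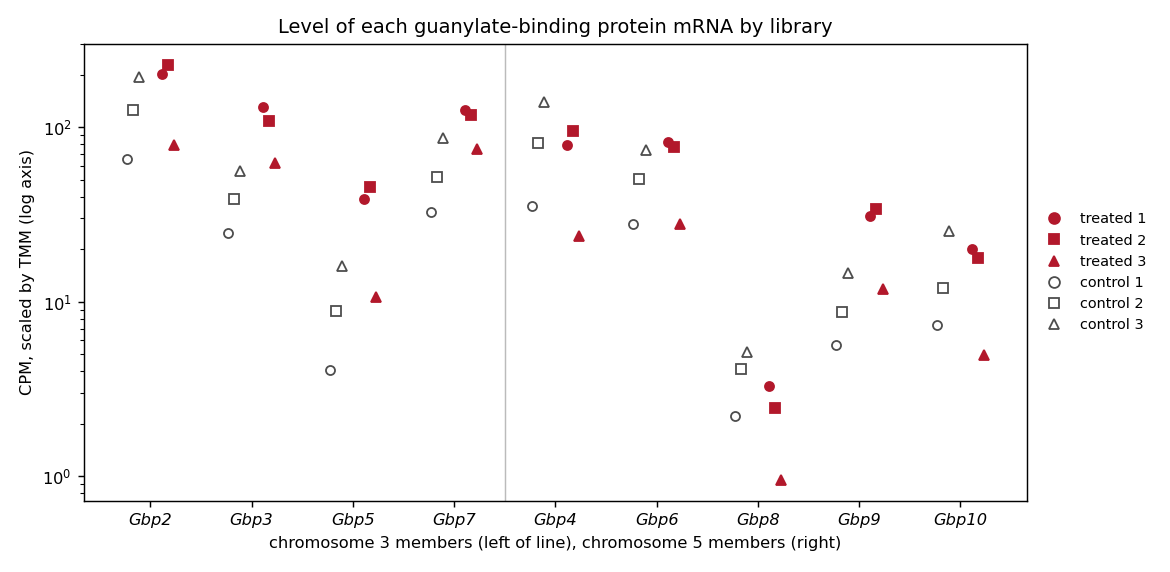
CPM of each member in the 6 libraries on a log axis, filled red symbols for treated and open grey symbols for control, with circles, squares and triangles for libraries 1, 2 and 3. Treated 3 is the lowest treated library and control 3 the highest control for every member, and the groups are apart for Gbp3 alone.

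The members moved together from library to library. For all 9, treated 3 was the lowest treated library, control 1 the lowest control and control 3 the highest control, an order that 8.1% of all tested genes shared. The highest control exceeded the lowest by 2.27-fold (Gbp3) to 3.93-fold (Gbp4), and the highest treated library exceeded the lowest by 1.69-fold (Gbp7) to 4.25-fold (Gbp5). With the group means removed, the 36 pairs of members had Pearson r from 0.879 (Gbp7 and Gbp8) to 1.00 (Gbp2 and Gbp4), with a median of 0.971, and with group means kept r ran from 0.01 (Gbp3 and Gbp8) to 0.996 (Gbp5 and Gbp9). These are over 6 libraries and the same depths, and describe this set only. Summed over the 9 members, the level was 715, 725 and 296 CPM in the treated libraries and 206, 381 and 612 CPM in the controls.

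In the deposited FPKM (fragments scaled to a gene length and library size), Gbp2 was the most abundant member in both groups, at 59.5 ± 27.5 FPKM in treated and 45.4 ± 22.8 FPKM in control tumours (SD, n = 3). Gbp2 was above the next member, Gbp3, in all 3 libraries of each group (27.2 ± 9.53 FPKM in treated, 10.8 ± 4.26 in control). The lengths used are not stated. For Gbp6, treated means of 62.3 CPM and 9.21 FPKM imply a length above the 2604 bases of its longest coding transcript. The same was true of the other members, to unequal degrees. The excess was large in Gbp5 (31.6 CPM and 4.19 FPKM, 3055 bases) and small in Gbp7 (106 CPM and 16.6 FPKM, 5614 bases). The order of members and their shares depend on these lengths. In treated tumours Gbp7 (16.6 ± 4.26 FPKM), Gbp6 (9.21 ± 4.41) and Gbp4 (7.73 ± 4.34) followed in that order in each library. Their neighbours' ranges overlapped, as did those of Gbp9 (4.34 ± 2.01), Gbp5 (4.19 ± 2.41) and Gbp10 (3.23 ± 1.84). Gbp8 was lowest at 0.568 ± 0.304 FPKM, with a range apart from that of Gbp10. In control tumours the order below Gbp3 was Gbp4 (10.1 ± 6.14 FPKM), Gbp7 (9.06 ± 4.37), Gbp6 (7.58 ± 3.44), Gbp10 (3.41 ± 2.14), Gbp9 (1.65 ± 0.777), Gbp5 (1.29 ± 0.801) and Gbp8 (0.979 ± 0.382). There the ranges of Gbp2 and Gbp3 were apart, and those of all later neighbours overlapped.

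In these libraries the makeup of the family was apart between groups although its total overlapped. No share could pass the test used for it, as given below. Gbp3 made up 21.7, 17.6 and 24.7% of the summed FPKM of the 9 members in treated 1, 2 and 3 and 14.2, 12.1 and 11.1% in controls 1, 2 and 3. Gbp4 made up 5.66, 6.72 and 4.10% in treated and 8.85, 11.1 and 12.0% in control libraries. Both shares separated the groups without overlap, and for these genes treated 3 was the library farthest from the controls, not the nearest.

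Gbp5 (2.95 ± 0.785% against 1.36 ± 0.203%, SD, n = 3), Gbp9 (3.21 ± 0.252% against 1.87 ± 0.157%) and Gbp7 (13.5 ± 3.33% against 10.2 ± 0.749%) took a larger share in treated tumours. For Gbp7 the difference of 3.26 percentage points dropped to 1.37 without treated 3, and treated 2 and control 1 were both at 11.0% after rounding. Gbp2 (44.1 ± 3.62% against 50.2 ± 0.908%), Gbp6 (6.77 ± 0.692% against 8.53 ± 0.414%), Gbp10 (2.28 ± 0.572% against 3.66 ± 0.533%) and Gbp8 (0.414 ± 0.0857% against 1.13 ± 0.141%) took a smaller one. All 9 shares had treated and control libraries apart, in each case with p = 0.1 by an exact two-sided permutation test (0.1 adjusted over the 9). That is the smallest p that 3 against 3 libraries can give, so no share can pass 0.05. Since shares add up to 100%, the 9 are not independent. A share also removes the swing from library to library that the members have in common. How often shares within other gene sets separate these libraries was not counted, so the 9 have no background. With Gbp6, Gbp10 and the overlapping Gm43302 summed as 1 unit, an alternative chosen after seeing the data, all 8 units were still apart, with 12.3 ± 1.61% against 16.1 ± 0.0665% for the summed unit.

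**Figure D4:**
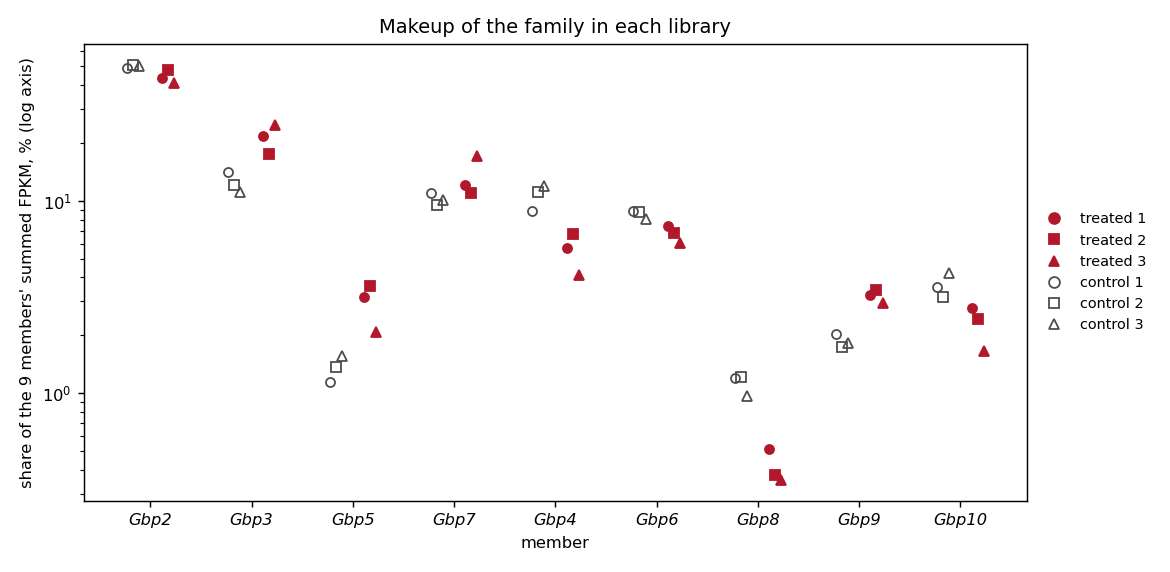
Share of each member in the summed FPKM of the 9 members, in percent on a log axis, filled red symbols for treated and open grey symbols for control libraries. Treated and control symbols do not overlap for any member: Gbp3, Gbp5, Gbp7 and Gbp9 are higher in treated libraries and Gbp2, Gbp4, Gbp6, Gbp8 and Gbp10 lower.

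Both further family rows were scarce. Gbp2b, the gene long called Gbp1 in mouse (chr3:142594847-142619179, plus strand), had 9, 5 and 0 counts in treated and 19, 36 and 20 in control libraries, a fitted log2 fold change of -2.45 ± 0.97 SE (edgeR adjusted p = 0.275). The groups did not overlap, but few counts stand behind every value. Gbp11 (chr5:105323042-105346472, minus strand) had 117, 69 and 26 counts in treated and 47, 56 and 76 in control libraries (log2 fold change 0.15 ± 0.54 SE, edgeR adjusted p = 0.929).

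Upstream of the family, Stat2 and Irf9 of the type I interferon complex rose. Stat2 was at 83.2 ± 14.4 against 22.9 ± 2.25 CPM (SD, n = 3; 3.64-fold, edgeR adjusted p = 0.000559) and Irf9 at 76.3 ± 3.21 against 25.7 ± 4.28 CPM (2.97-fold, edgeR adjusted p = 0.000668). Of the 18 genes of interferon signalling reported here, these 2 rose and none fell, with a median log2 fold change of 0.15. The calls of Stat2 and Irf9 held with each library left out.

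Ifng and Irf1, of the interferon-gamma arm, were not called. Irf1, a factor that drives guanylate-binding protein genes, was at 75.9, 78.0 and 32.6 CPM in treated and 35.7, 66.4 and 99.4 CPM in control libraries (log2 fold change -0.11 ± 0.41 SE, edgeR adjusted p = 0.931). Treated 3 was lowest and control 3 highest, as in Gbp4. Ifng, the ligand, had 28, 20 and 4 counts in treated and 11, 22 and 24 in control libraries (log2 fold change -0.22 ± 0.76 SE, edgeR adjusted p = 0.927). Ifnb1, a type I interferon ligand, was not called either. It had 20, 95 and 7 counts in treated and 15, 5 and 0 in control libraries (log2 fold change 2.565 ± 1.246 SE, edgeR adjusted p = 0.363). Irf1, Ifng and Ifnb1 are named after their values were seen.

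**Figure D5:**
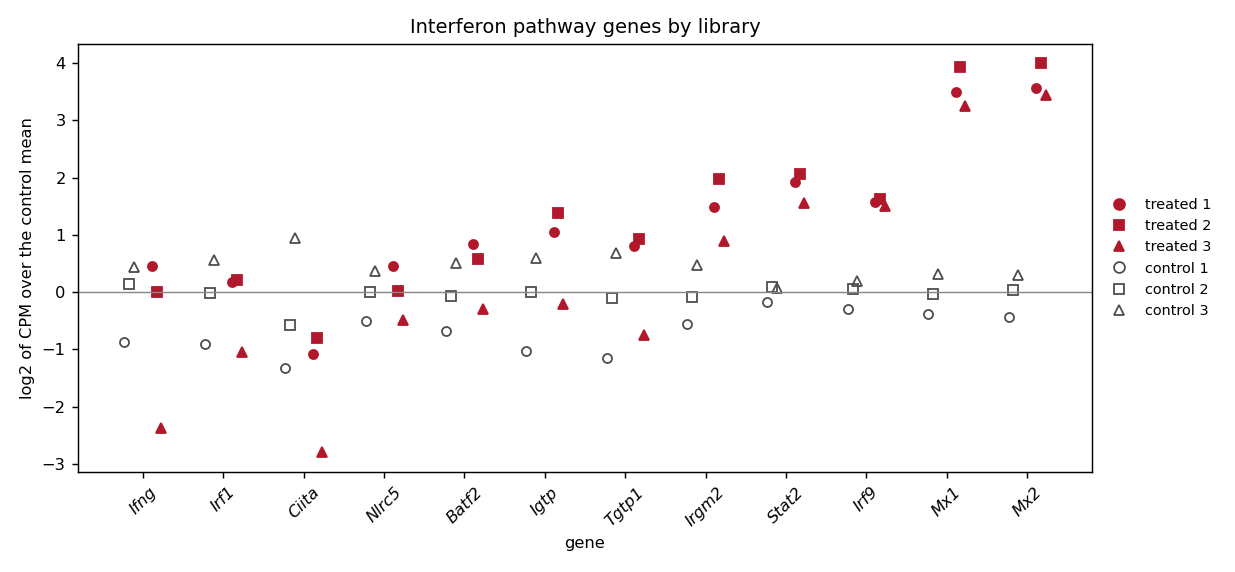
Log2 of CPM over the control mean for 12 pathway genes, chosen for display after their values were seen, in the 6 libraries (filled red for treated, open grey for control). From Ifng to Tgtp1 the groups overlap, with treated 3 the lowest treated and control 1 the lowest control library, and from Irgm2 to Mx2 every treated library is above every control.

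Partners that work on the same vacuoles were mixed. Among 18 immunity-related GTPases, ubiquitin ligases and autophagy proteins, 2 rose and none fell (median log2 fold change 0.41): Rnf213, a giant ligase that ubiquitylates bacterial lipopolysaccharide, rose 4.36-fold (edgeR adjusted p = 0.000305) and Trim21, an antibody receptor and ligase, rose 3.57-fold (edgeR adjusted p = 0.00216). Irgm2, a regulator of the immunity-related GTPases, was at 158 ± 57.1 against 55.1 ± 19.6 CPM (SD, n = 3; log2 fold change 1.52 ± 0.32 SE, edgeR adjusted p = 0.0665), and passed without treated 3 (edgeR adjusted p = 0.0256). Treated 3 was the lowest treated library for Irgm2, and with any other library left out Irgm2 did not pass (edgeR adjusted p = 0.097 to 0.281). Sqstm1, an autophagy receptor and the most abundant of the list, had 0.23 ± 0.09 (edgeR adjusted p = 0.261). The calls of Rnf213 and Trim21 held with each library left out.

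Of 12 inflammasome and pyroptosis genes, which act after guanylate-binding proteins, 0 rose or fell by edgeR, 3 had an unadjusted edgeR p under 0.05 (median log2 fold change 0.24), DESeq2 called 2 and limma-voom with sample quality weights 1. Zbp1, a nucleic acid sensor, had 1.45 ± 0.37 SE (edgeR adjusted p = 0.115), Casp4, the mouse caspase-11 that binds lipopolysaccharide, 1.07 ± 0.30 (edgeR adjusted p = 0.147), and Mefv, which encodes pyrin, 1.54 ± 0.66 (edgeR adjusted p = 0.307). Zbp1 (edgeR adjusted p = 0.0118) and Casp4 (0.0378) passed without treated 3, their lowest treated library, whose removal raises their fold changes by construction. With any other library left out neither passed (edgeR adjusted p = 0.192 to 0.359 for Zbp1 and 0.213 to 0.374 for Casp4). Ninj1, which ruptures the plasma membrane at the end of pyroptosis and was the most abundant, had -0.11 ± 0.09 (edgeR adjusted p = 0.631).

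The 5 enzymes that attach and process lipid anchors had 0 calls by edgeR, DESeq2 or limma-voom with sample quality weights and 0 at an unadjusted edgeR p under 0.05. Their median log2 fold change was 0.04, from -0.17 ± 0.09 SE in Pggt1b, a subunit of the enzyme that adds the longer anchor (edgeR adjusted p = 0.387), to 0.12 ± 0.10 in Fntb of the enzyme that adds the shorter one (edgeR adjusted p = 0.614). Icmt, the methyltransferase that finishes the anchor and the most abundant of them, had 0.09 ± 0.08 (edgeR adjusted p = 0.681).

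Among 8 other dynamin-like and related GTPases, Gbp2b and Gbp11 included, 3 rose and none fell (median log2 fold change 0.25). The antiviral GTPases Mx2 and Mx1 rose 12.9-fold and 12.1-fold (edgeR adjusted p = 0.000305 and 0.000348) and held with each library left out. Gvin1, a very large interferon-inducible GTPase, was at 20.8 ± 7.58 against 5.90 ± 2.22 CPM (SD, n = 3; 3.53-fold, edgeR adjusted p = 0.049). Its call was lost without any library but treated 3 (edgeR adjusted p = 0.0962 and 0.173 without treated 1 and 2, and 0.139, 0.239 and 0.0814 without controls 1, 2 and 3). Atl3, an atlastin of the endoplasmic reticulum and the most abundant of the list, had 0.01 ± 0.08 SE (edgeR adjusted p = 0.967).

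Among 11317 other genes, the 6 whose log2 CPM followed the mean of the members most closely over the 6 libraries were Tgtp1 (Pearson r 0.996), Taf11 (0.992), Batf2 (0.987), Tap1 (0.981), Mtfr2 (0.979) and Idh3b (0.978). Tgtp1, an immunity-related GTPase with a near copy, Tgtp2, that can share its reads, ran from 87.0 CPM in control 1 to 371 CPM in treated 2 (log2 fold change 0.50 ± 0.52 SE, edgeR adjusted p = 0.699). Tap1, the peptide transporter of antigen presentation, ran from 54.8 CPM in control 1 to 154 CPM in treated 1 (0.49 ± 0.33, edgeR adjusted p = 0.527). Batf2, an interferon-inducible transcription factor, ran from 6.87 CPM in control 1 to 19.5 CPM in treated 1 (0.44 ± 0.35, edgeR adjusted p = 0.6). Taf11, Mtfr2 and Idh3b shared the order with a small range, as in Idh3b from 113 to 128 CPM. Pearson r over 6 libraries ignores the size of a change, and none of the 6 passed the test.

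Markers of cell types that could make these mRNAs are given beside them, and their part in the members' levels was not tested. Treated 3, low in the members, also had the lowest summed level of 10 macrophage markers (79.2 CPM, against 156 and 262 in the other treated and 161 to 220 in control libraries), of 8 NK and cytotoxic markers (2.14 CPM, against 6.90 and 11.7 in treated and 6.53 to 10.2 in control) and of 9 T cell markers (11.1 CPM, against 12.4 and 16.4 in treated and 15.1 to 16.3 in control). Lck made up most of the T cell sum and was not low in treated 3. It was at 9.38 CPM there, against 9.90 and 8.79 in treated 1 and 2 and 8.00 to 9.88 in control libraries. Of the macrophage markers Lyz2 was the most abundant and none was at 0 in any library. Cd3e and Cd5 of the T cell list and Ncr1, Klrb1c and Gzma of the NK list were at 0 in at least 1 library. None of the 10, 6 and 9 of these genes that passed the filter was called. Control 3, high in the members, was lowest of the controls in macrophage markers and highest in NK and cytotoxic markers.

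The 10 endothelial markers summed to 205, 194 and 175 CPM in treated and to 103, 102 and 104 CPM in control libraries, 6 of them rose, and none was at 0. The 7 neutrophil markers summed to 55.4, 17.7 and 5.19 CPM in treated and to 2.53 to 5.32 CPM in control libraries, with 0 called and Cxcr2, Ly6g and Retnlg at 0 in some libraries. Dendritic cell markers summed to 10.2 to 16.8 CPM in treated and 13.4 to 14.3 in control libraries (Cd209a at 0 in some) and fibroblast markers to 506 to 576 and 319 to 592 CPM, with 0 called in each list. The most abundant marker of each list given here had a log2 fold change of -0.80 (Lyz2), -0.09 (Gzmb), 0.09 (Lck), 0.06 (Zbtb46), 0.09 (Col3a1), 0.41 (Egfl7), 0.09 (Tyrp1) and 3.78 (S100a9), and none of these 8 passed by edgeR with all libraries (edgeR adjusted p = 0.0974 for Egfl7 and 0.107 for S100a9, above these for the rest). S100a9, a neutrophil alarmin, passed without treated 3 (edgeR adjusted p = 0.013) and with DESeq2 (adjusted p = 0.00918), and its log2 fold change was 2.34 without treated 1. With any library but treated 3 left out S100a9 did not pass (edgeR adjusted p = 0.146 to 0.355). Egfl7, an endothelial secreted protein, passed with DESeq2 (adjusted p = 0.00965) and limma-voom with sample quality weights (adjusted p = 0.0392).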

How the data were processed

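Polyadenylated RNA of 6 tumour samples was sequenced as paired reads from a library that marks strand, per the labels' protocols. The authors deposited raw counts and FPKM per gene in 1 table, per the file headers. Fastp, StringTie and edgeR are named in the submitters' processing notes. The sources used here do not state the aligner, build, annotation or strand setting. GENCODE M21 (GRCm38) holds 99.7% of the table's identifiers, 90.2% with an identical span, which is true of 6 of the 9 members. The FPKM column of control 2 carries an extra suffix. For all 9 members FPKM and count kept a fixed ratio to within 1%.

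Groups follow the library names in the labels. Counts were filtered with filterByExpr (minimum count 10, total 15; 18049 genes kept), scaled by TMM (factors 0.974 to 1.01) and tested by edgeR's quasi-likelihood F test for group alone (glmQLFit, glmQLFTest; edgeR 4.0.16, R 4.3.3), two-sided, Benjamini-Hochberg over all genes tested, threshold 0.05. The SE is the size of the log2 fold change divided by the square root of F. CPM are scaled by TMM. The fit was also run on simulated counts. Genes varied independently there, without the swing between libraries that the members shared, so that run does not bear on the members' tests. With 57017043 counts or more per library, precision for the members rests on the spread between libraries. Shares use the deposited FPKM, whose gene lengths are not stated, and exact permutation tests (scipy 1.17.1). Alternatives were DESeq2 1.42.0, limma-voom with sample quality weights (limma 3.58.1), other scaling and filters, a replicate block and leaving out each library. Members and lists were chosen with earlier results of these data known. Named are all members, Gbp2b and Gbp11, of each list its most abundant gene and the 3 of smallest p, the 6 genes most like the members' mean (mean log2 CPM of at least 1, no predicted genes) and the most abundant marker of each list. A gene of the interferon signalling list and a marker list are not reported here. Others are marked as chosen after their values were seen.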

Additional observations from a re-analysis of the deposited data

How the results depend on the processing

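Over 13 alternatives no member but Gbp3 was called. The number of members that rose was 0, and 1 with DESeq2, with limma-voom with sample quality weights and without treated 3 (0 to 1 over the leave-outs), and the number that fell was 0 throughout. The adjusted p of Gbp3 ran from 0.0329 to 0.349 over its alternatives (edgeR, DESeq2 and limma-voom). Gbp2, Gbp3, Gbp5, Gbp6, Gbp7, Gbp8 and Gbp9 kept their direction in all 13. Signs of the log2 fold change turned without treated 3 or control 3 for Gbp4 (0.04 and 0.19; leave-outs -0.73 to 0.19), Gbp10 (0.34 and 0.56; -0.39 to 0.56) and Gzmb (0.38 and 0.20; -0.86 to 0.38), without treated 1 or control 1 for Gbp11 (-0.41 and -0.02; -0.41 to 0.55), without treated 2 or treated 3 for Atl3 (-0.0307 and -0.02; -0.0307 to 0.0813), without treated 1 for Zbtb46 (-0.13; -0.13 to 0.177) and without control 3 for Col3a1 (-0.18; -0.18 to 0.38). They also turned by limma-voom for Gbp11 (-0.0743), Zbtb46 (-0.026) and Lck (-0.0223), and with the replicate block for Gbp11 (-0.0070). None of these was called. The 9 share differences kept their sign in every alternative run. For the leave-outs this was fixed in advance, since treated and control shares did not overlap. Shares from counts scaled by TMM used lengths drawn from the same FPKM, so they could hardly differ. Neither therefore tests the makeup of the family. The difference of Gbp7 moved by over 1.5 times without treated 3 (1.37 percentage points in place of 3.26). Gbp2b got no adjusted p from DESeq2 and did not pass the minimum count of 50.

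Of all genes, 246 rose and 45 fell, with DESeq2 754 and 367, with limma-voom 601 and 191, and without a filter 164 and 10. The leave-outs gave 94 to 308 rises and 3 to 39 falls. With the replicate number as a replicate block 123 rose and 14 fell, and the members' count stayed 0. Gvin1 lost its call with the block (edgeR adjusted p = 0.165), without a filter (0.109) and with DESeq2 size factors in edgeR (adjusted p = 0.05). Same-numbered libraries did not deviate together (r = 0.086, -0.164 and -0.107), so the numbers are not taken as pairs. The GTPase, ubiquitin and autophagy list had 4 rises by limma-voom in place of 2, and the inflammasome list 2 by DESeq2, 1 by limma-voom and 2 without treated 3 (0 to 2 over the leave-outs) in place of 0. The causes were not tested. At a minimum count of 50, with other size factors or with duplicate symbols summed, no count of rises or falls given here moved by over 1.5 times. Few counts limit Gbp2b, Ifng and Ifnb1.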
